A study of Mus musculus with 20 samples.

Results

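The subject is the interaction between 2 compounds, DSHN and GW3965, in mouse bone marrow derived macrophages, that is, the genes whose response to both compounds together was not the product of the responses to each. The comparison used all 20 of 20 libraries of the series, 5 in each cell of a 2 by 2 layout. The DSHNplusGW libraries came from cells given 50 µM DSHN together with 1 µM GW3965, the GW3965 libraries from cells given 1 µM GW3965 alone, the DSHN libraries from cells given 50 µM DSHN alone, and the DMSO libraries from cells given the solvent alone. All were treated for 24 h. Marrow cells of C57BL/6 female mice, with no transgene or deletion named in the labels, had been grown into macrophages with recombinant murine M-DSF, as the labels spell it. The labels call the 5 cultures of a group biological replicates but do not say whether they came from separate mice, so the p-values measure the spread between these cultures. Per the series' design text, GW3965 is an agonist of LXR, DSHN is an agonist of NR0B2, and NR0B2 inhibits LXR. The question is thus whether the effect of DSHN is the same with GW3965 present as without it.

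LXR alpha and LXR beta are nuclear receptors that bind oxysterols and pair with RXR on DNA. In macrophages they switch on genes of cholesterol export and of fatty acid synthesis, and they dampen inflammatory genes. NR0B2, also called SHP, has no DNA-binding domain and acts by binding other nuclear receptors and bringing corepressors to them.

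The interaction was computed per gene as the log2 fold change of DSHNplusGW over GW3965 minus the log2 fold change of DSHN over DMSO. A value of 0 means that the single effects multiplied, so that the level with both compounds equals the GW3965 level times the DSHN over DMSO ratio. That product is called the expected level here. A negative interaction is a combination level below it and a positive one a level above it. Levels are CPM, read counts scaled to library size with TMM factors, given as mean ± SD of 5 libraries, and compare one gene across groups, not genes of different length. Interactions are given with their standard errors (SE) and with Benjamini-Hochberg adjusted p from edgeR's quasi-likelihood test over 13307 tested genes, with calls at an adjusted p under 0.05. A second fit removed each library's trend with exon length, and genes called with the same sign in both fits are said to be called in both.

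Totals ran from 16855029 to 23796561 counts per library. The 34 macrophage identity genes summed to 31830 to 33700 CPM in DSHNplusGW, 31050 to 33840 in GW3965, 33660 to 35390 in DSHN and 31140 to 32640 in DMSO libraries, scaled by library totals as are the other marker sums. Markers of neutrophils, dendritic cells, T and NK cells, mast cells with basophils, and erythroid cells summed to at most 13.1 CPM per list and library. The DSHNplusGW libraries stood apart from the other 15 in how their counts ran with the summed exon length of genes. Relative to each gene's mean over the 20 libraries, log2 CPM changed by −0.124 to −0.0943 per doubling of exon length in the DSHNplusGW libraries and by 0.00566 to 0.063 in the others. Set against each other group in turn, the slopes gave p = 0.00794 (exact permutation, two-sided), the smallest value that 5 against 5 allow, and p = 0.00794 again once adjusted over the 3 comparisons. An earlier analysis of these data had shown a length trend, so these p-values describe it and are not a fresh test. Mitochondrial rRNA and tRNA took 0.201 to 0.246% of the counts in the DSHNplusGW libraries and 0.114 to 0.152% in the other 15. The labels name no batch, and since every DSHNplusGW library shows the trend and no other library does, the treatment and a difference in RNA or library preparation cannot be told apart.

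Without the correction, the interaction was called in 6681 genes, or 50.2% of those tested, 3154 above the expected level (23.7%) and 3527 below it (26.5%). With the exon length correction 5877 were called (44.2%), 2863 above (21.5%) and 3014 below (22.6%). Called in both with the same sign were 4712 genes (35.4%), of which 2155 were above (16.2%) and 2557 below (19.2%), while 22 genes were called with opposite signs. Scaled by library totals alone, in place of TMM, the uncorrected split was 4069 above and 2853 below, with the median of all genes at 0.08 instead of 0.005, and the corrected split was 2890 above and 2989 below. On linear CPM, where the expectation is a sum of differences, 4711 of the 4712 genes had the same sign. The exception was Pdlim4 (interaction −0.22, linear value 0.028 CPM, SE 2.0), named after its value was seen. Where both single effects go the same way, the product exceeds the sum, so a level above the product is above both. With small effects the product and the sum nearly coincide. A level below the product could, where both effects go the same way, still have been above the sum. The match of signs was thus fixed in advance for some genes and not for others. It covers signs only, since the linear values were not tested.

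The uncorrected calls ran with exon length. The tested genes were put into 10 equal bins by their exonic bases. In the bin of the shortest genes, with a median of 928 bases, the median interaction was 0.27, 46.8% of genes were above the expected level and 2.71% below. In the bin of the longest genes, with a median of 13150 bases, it was −0.27, with 8.04% above and 51.0% below. The correction brought the median of each of the 10 bins to between −0.017 and 0.011. Sorted by genomic span (introns included) instead, the corrected medians were −0.07 and −0.14 in the 2 bins of the longest spans, so a trend with span was not fully removed. The main genes and most list medians below are therefore given with and without the correction. A gene value given once is without it. The correction made some values smaller (Hspa4l, −0.45 to −0.20) and others larger (Lgals9, −0.68 to −0.87). Counts of called list members are to be read against all tested genes, with 23.7% above and 26.5% below, or 16.2% and 19.2% in both fits.

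**Figure D1:**
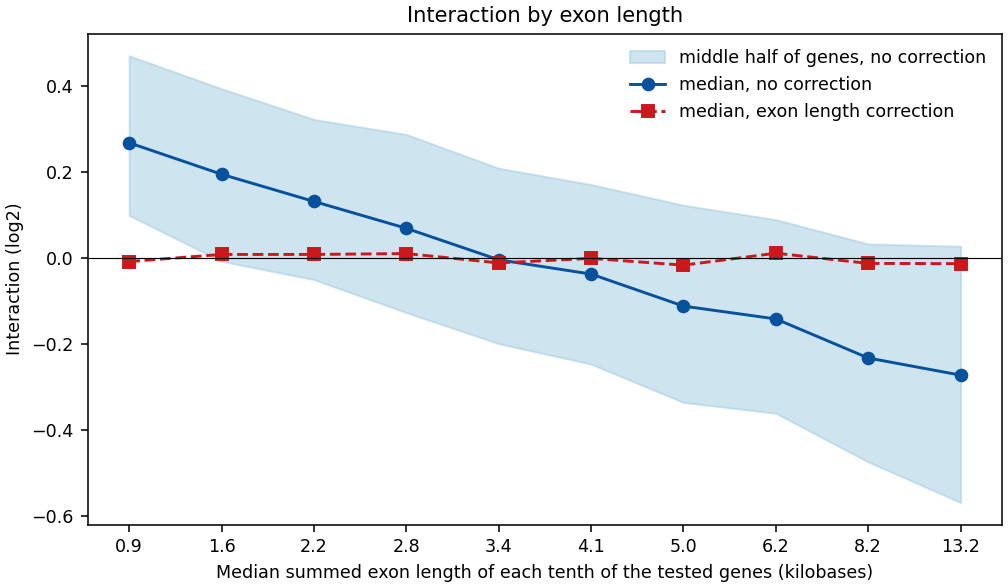
Median interaction (log2) in 10 equal bins of the 13307 tested genes ordered by summed exon length, whose median per bin in kilobases is on the horizontal axis. Without correction (circles, with the range from the lower to the upper quartile shaded) the medians run from 0.27 in the bin of the shortest genes to −0.27 in that of the longest, and with the exon length correction (squares) they lie between −0.017 and 0.011.

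Departures of at least 2-fold, called in both, were found in 164 genes above the expected level (1.23%) and 252 below it (1.89%). Among the 164, DMSO had the highest of the 4 group means in 107 (65.2%, against 29.7% of all tested genes), GW3965 the lowest in 125 (76.2%, against 22.1%), and the medians were −0.66 for DSHN over DMSO and −0.99 for GW3965 over DMSO. Among the 252, DSHNplusGW had the lowest mean in 158 (62.7%, against 34.8% of all tested genes), GW3965 had the highest in 181 (71.8%, against 22.2%) and DMSO the lowest in 93 (36.9%, against 31.3%). Their medians were 0.33 for DSHN over DMSO, 0.45 for GW3965 over DMSO and −0.93 for DSHNplusGW over GW3965, and their median exon length was 6514 bases, against 3758 for all tested genes. These shares describe sets that were chosen on the same values and carry no test. All 5 DSHNplusGW libraries lay above the other 15 in 540 of the 2155 genes called above in both, and below the other 15 in 1187 of the 2557 called below in both, while over all tested genes 11.7% lay above and 14.9% below.

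The receptor genes had small interactions or few counts. Nr1h2, which encodes LXR beta, averaged 53.5 ± 2.06 CPM in DSHNplusGW, 56.2 ± 1.61 in GW3965, 57.1 ± 3.39 in DSHN and 51.6 ± 1.73 in DMSO. The GW3965 libraries were all above the DMSO libraries, and the other groups overlap. Its interaction was −0.22 (SE 0.06, adjusted p = 0.00324) and −0.21 with the correction. Nr1h3, the LXR alpha gene, averaged 15.4 ± 1.19 CPM in DSHNplusGW, 14.3 ± 1.14 in GW3965, 12.1 ± 1.24 in DSHN and 14.4 ± 0.904 in DMSO. It was above the expected level by 0.36 (SE 0.10, adjusted p = 0.00588), and with the correction by 0.24 at an adjusted p of 0.0496. Nr0b2, the target of DSHN per the design text, had 3, 2, 7, 5 and 2 counts in the DSHNplusGW libraries, 3, 2, 2, 4 and 0 in GW3965, 2, 2, 0, 1 and 3 in DSHN and 5, 4, 8, 3 and 3 in DMSO. It stayed below the filter. Fitted with all genes that had a count, its interaction was 2.31 (SE 0.88, adjusted p = 0.04), and 2.21 with the correction (adjusted p = 0.0578).

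Of 19 tested LXR targets, 14 fell below the expected level and 3 were above it, all of them in both fits, with a median interaction of −0.80, and −0.76 with the correction, beside 0.005 and −0.002 over all tested genes. Abca1 (GeneID 11303, chromosome 4, 53030789 to 53159988 on the minus strand, GRCm39, 10432 exonic bases), which exports cholesterol to apolipoprotein A-I, had 1286, 1295, 1256, 1131 and 1252 CPM in DSHNplusGW, 3613, 3314, 3140.0, 2827 and 2856 in GW3965, 209, 236, 295, 346 and 345 in DSHN, and 229.7, 264, 219, 173 and 157 in DMSO libraries. Every DSHNplusGW library lay between the DSHN and the GW3965 libraries, and the DSHN and DMSO libraries overlap. The expected level was 4326 CPM, so the 1244 ± 66 CPM measured was 0.288 of it (interaction −1.80, SE 0.17, adjusted p = 8.73e-09, and −1.54 with the correction). DSHN thus went with a lower Abca1 level beside GW3965 (−1.34) and a higher one without it (0.46).

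Lbp, which encodes the lipopolysaccharide-binding protein, had the most negative interaction among the genes named by size, with 5.39, 5.301, 5.53, 3.97 and 4.78 CPM in DSHNplusGW, 12.9, 12.3, 10.7, 9.78 and 10.3 in GW3965, 0.913, 0.895, 1.44, 1.57 and 1.098 in DSHN, and 0.676, 0.7101, 0.458, 0.522 and 0.5997 in DMSO libraries. The 4 groups do not overlap, and the interaction was −2.13 (SE 0.25, adjusted p = 1.76e-07). Among the other sterol and lipoprotein genes, Abcg1, the exporter to high-density lipoprotein, averaged 762 ± 55.8 CPM in DSHNplusGW, 1286 ± 107 in GW3965, 96.6 ± 11.5 in DSHN and 78.8 ± 15.9 in DMSO (interaction −1.04). Pltp (−0.98), which transfers phospholipid between lipoproteins, and Apoe (−0.80), the lipoprotein of macrophage cholesterol export, were also below. Mylip, a ubiquitin ligase gene, was at −0.78, Lpcat3, which remodels phospholipids, at −0.61, and Srebf1, the lipogenic transcription factor, at −0.55. The genes for the macrophage survival factor Cd5l (−1.31), the interleukin 18 decoy Il18bp (−1.34) and the efferocytosis receptor Mertk (−0.92) followed. Il18bp shares 29.4% of its exonic bases with Rnf121. Since no strand option stands in the counting commands, reads in those bases cannot be told from those of that gene, and could have been left out. Smpdl3a (−0.29), Scd1 and Scd2 complete the 14.

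Lpl, which encodes lipoprotein lipase, went the other way. It had 5672, 6022, 5902, 6401 and 6323 CPM in DSHNplusGW, 6238, 6265, 6426, 6990.0 and 7057 in GW3965, 2992, 2633, 2717, 2631 and 2714 in DSHN, and 5091, 5325, 5565, 5317 and 5409 in DMSO libraries. The DSHN libraries alone were low, at 2737 CPM on average, and the DSHNplusGW libraries overlapped with the GW3965 ones. The interaction was 0.84 (SE 0.06, adjusted p = 1.55e-10, and 0.88 with the correction), against an expected 3380 CPM. Plin2, the lipid droplet coat gene (0.48), and Nr1h3 were the others above, and 13.5% of the exonic bases of Plin2 are shared with another gene. Arl4c (−0.04, adjusted p = 0.49) and Apoc1 (−2.40, SE 1.37, adjusted p = 0.151) did not pass.

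**Figure D2:**
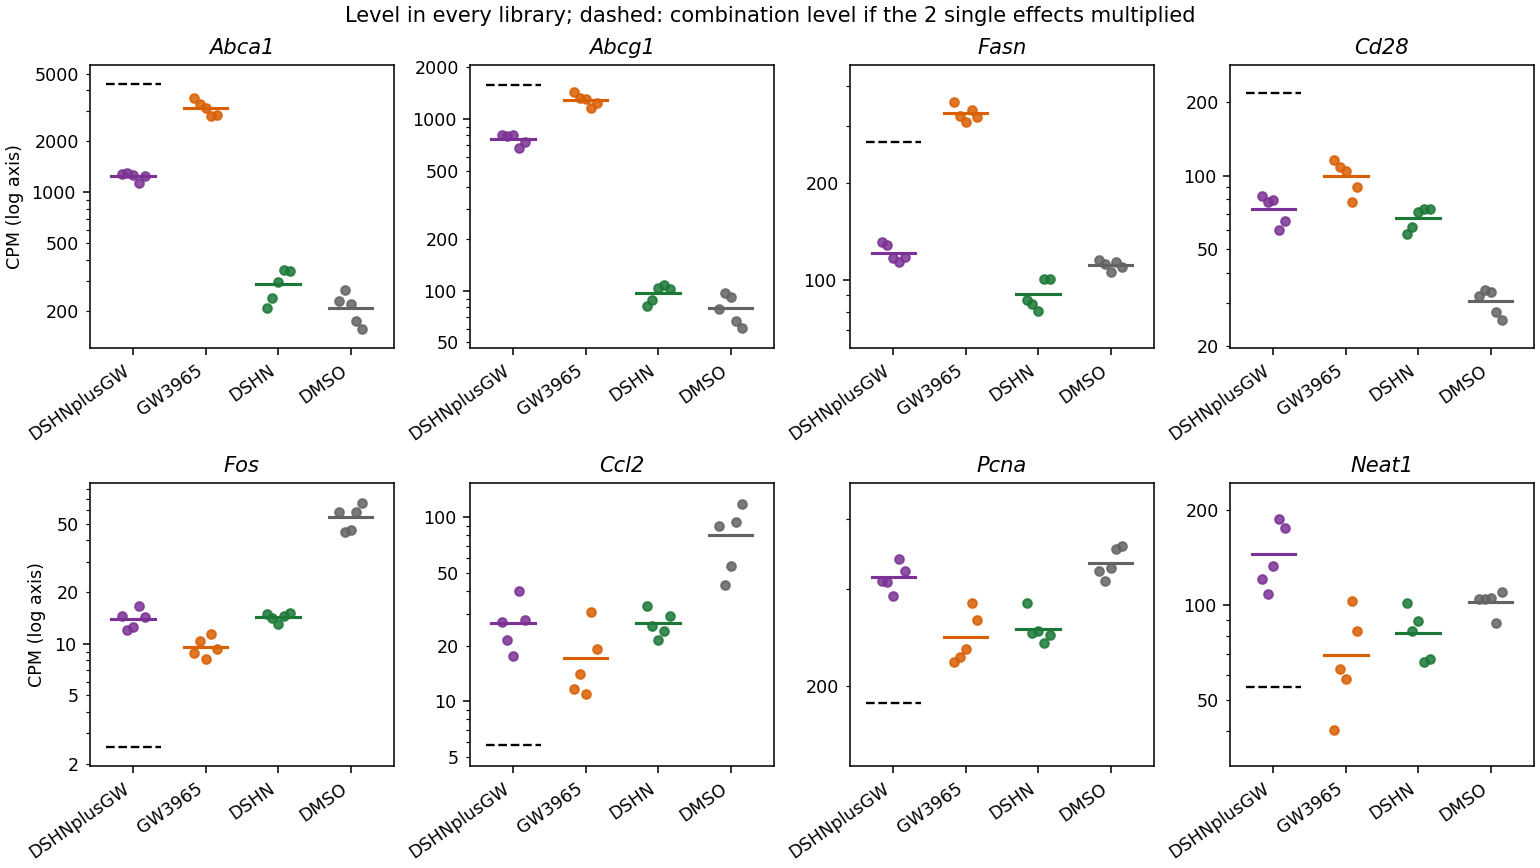
CPM of 8 genes in each of the 20 libraries (points, log axis), with group means as solid lines and, over the DSHNplusGW points, the expected level as a dashed line. The dashed line is above the DSHNplusGW points for Abca1, Abcg1, Fasn and Cd28 and below them for Fos, Ccl2, Pcna and Neat1.

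In the fatty acid synthesis list, 13 of 28 tested genes were below the expected level and 3 above (12 and 2 in both fits), with a median of −0.13 and −0.18 with the correction. Fasn (GeneID 14104, chromosome 11, 120696784 to 120715992 on the minus strand, GRCm39), the fatty acid synthase gene, had 132, 129, 117, 114 and 118 CPM in DSHNplusGW, 357, 323, 310.3, 338 and 321 in GW3965, 87.05, 84.2, 80.2, 101 and 101 in DSHN, and 116, 112, 106, 114 and 110.2 in DMSO libraries. The GW3965 libraries alone were high, and the DSHNplusGW libraries overlapped with the DMSO ones. Its interaction was −1.13 (SE 0.08, adjusted p = 7.91e-11), and −0.88 with the correction. The members below included both enzymes ahead of and behind Fasn. Acss2, which makes acetyl-CoA from acetate, was at −0.98, the citrate lyase gene Acly at −0.49, Acaca, which makes malonyl-CoA, at −0.84, and the desaturase genes Scd1 and Scd2 at −1.27 and −0.72. Scd1 and Scd2 are close paralogs, so reads that match both could be split between them or left out. Lpin1, the phosphatidate phosphatase gene (−1.27), and the desaturase gene Fads2 (−0.48) were below as well, while Elovl7, an elongase gene at 0.569 ± 0.16 CPM in DSHNplusGW, and Hacd2 were above (0.86 and 0.34).

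In the cholesterol synthesis and uptake list, 10 of 29 tested genes were below and 6 above (8 and 3 in both fits), with a median of 0.02, or −0.02 with the correction. Over all tested genes 26.5% were below and 23.7% above (19.2% and 16.2% in both fits). Npc1, which moves cholesterol out of lysosomes (−0.91, SE 0.10), and Soat1, which esterifies it (−0.53), were the members furthest below. Lss, the lanosterol synthase gene, was at −0.37 (−0.18 with the correction) and Insig1, which holds back sterol synthesis, at −0.27. Of the exonic bases of Npc1, 5.02% are shared with another gene, and of those of Lss 5.48%.

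The promoters of Abca1 and Fasn are shown as the sequence around the start of the genes behind the LXR and lipogenic results. Each window runs from 250 bases before to 50 bases after the start in RefSeq's annotation of GRCm38.p6, which is not the build of the counts, and is written 5′ to 3′ on the gene's strand. Capitals mark matches on either strand to CACGTG, the E-box, in Abca1, and to CCAAT, the letters read by NF-Y, in Fasn. All 3 windows printed were searched on both strands for the E-box, for the letters read by NF-Y, for the AP-1 site TGAGTCA and for the nuclear receptor core AGGTCA, and other matches than those marked were not found. The Abca1 window is chr4:53159846-53160145 on the minus strand and the Fasn window chr11:120824498-120824797 on the minus strand.
Abca1: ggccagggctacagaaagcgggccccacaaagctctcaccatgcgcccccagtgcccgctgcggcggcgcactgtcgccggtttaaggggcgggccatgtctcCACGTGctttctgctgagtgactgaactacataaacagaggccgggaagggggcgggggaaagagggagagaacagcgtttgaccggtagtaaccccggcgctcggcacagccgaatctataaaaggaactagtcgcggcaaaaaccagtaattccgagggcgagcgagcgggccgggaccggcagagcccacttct
Fasn: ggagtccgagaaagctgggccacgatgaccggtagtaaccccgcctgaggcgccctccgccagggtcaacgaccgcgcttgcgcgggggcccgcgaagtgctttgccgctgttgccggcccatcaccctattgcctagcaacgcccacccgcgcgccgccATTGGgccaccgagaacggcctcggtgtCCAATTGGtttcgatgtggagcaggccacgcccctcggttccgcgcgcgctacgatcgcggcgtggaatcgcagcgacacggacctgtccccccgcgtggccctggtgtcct
The E-box of Abca1 begins 147 bases before the start. Fasn holds 3 matches, at 90, 62 and 59 bases before the start, and the last 2 overlap. Of the 27025 promoters in the table, 7.24% hold CACGTG and 37.9% CCAAT. Of the 10332 tested genes with a window, 10.2% hold CACGTG and 38.9% CCAAT. Windows were at hand for 67.1% of the genes at least 2-fold above the expected level, 72.2% of those at least 2-fold below and 77.6% of all tested genes, too few of either set. A comparison of motif shares between these sets is therefore void and is not given.

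Other genes below the expected level had higher levels under each compound alone than in DMSO, and with both a level short of the product. Cd28, a costimulatory receptor gene known mainly from T cells, had 82.5, 78.5, 79.2, 59.9 and 65.4 CPM in DSHNplusGW, 116, 109, 105, 78.1 and 90.1 in GW3965, 57.6, 61.5, 71.1, 73.1 and 73.4 in DSHN, and 32.3, 34.2, 33.5, 27.8 and 25.6 in DMSO libraries. All treated libraries were above all DMSO libraries, and the DSHNplusGW libraries overlapped with both single treatments, against an expected 218.5 CPM. The interaction was −1.57 (SE 0.14, adjusted p = 4.97e-09, and −1.50 with the correction). The T and NK cell markers summed to 8.26 to 11.2 CPM in DSHNplusGW, 9.32 to 13.0 in GW3965, 8.87 to 13.1 in DSHN and 8.72 to 10.8 in DMSO libraries, ranges that overlap between all 4 groups. The B cell markers summed to 55.8 to 88.4 CPM in DSHNplusGW, 61.3 to 87.5 in GW3965, 58.9 to 66.8 in DSHN and 25.5 to 53.2 in DMSO libraries, so that they too were lowest in DMSO, and their part in the Cd28 result was not tested. In bulk samples fewer cells of a type and less RNA per cell cannot be told apart.

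Slc40a1, the iron exporter ferroportin, averaged 690.0 ± 19.7 CPM in DSHNplusGW, 718 ± 29.9 in GW3965, 622 ± 12.2 in DSHN and 307 ± 26.5 in DMSO, where multiplied effects would give 1456 CPM (interaction −1.08, SE 0.06, adjusted p = 1.95e-12, the same with the correction). The DSHNplusGW libraries overlapped with GW3965 in Slc40a1 and lay above every DSHN library. Ncoa4, the receptor that sends ferritin to lysosomes, was at −1.51, and Steap3, an iron reductase gene, at 0.70. The iron list as a whole had 7 of 15 tested genes below and 2 above (5 and 2 in both fits, and 7 and 4 with the correction alone), with a median of −0.06, and −0.02 with the correction. Catalase (Cat), placed with the NRF2 targets, averaged 1134 ± 48.6 CPM in DSHNplusGW, 957 ± 63.9 in GW3965, 1058 ± 20.5 in DSHN and 619 ± 40.4 in DMSO, with an interaction of −0.53. Its DSHNplusGW mean was thus the highest of the 4. It was 0.25 over GW3965 (adjusted p = 3.32e-05 by edgeR, and 0.16 with the correction). Over DSHN it was 0.10 (adjusted p = 0.0533 by edgeR).

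Clock genes included such cases. Of 16 tested, 9 were below the expected level and none above (6 and 0 in both fits), with a median of −0.31, or −0.20 with the correction. Dbp, a clock-controlled transcription factor gene, averaged 15.8 ± 1.82 CPM in DSHNplusGW, 15.4 ± 2.78 in GW3965, 15.9 ± 1.08 in DSHN and 6.25 ± 0.789 in DMSO. The 3 treated groups overlap and all lie above DMSO, and the interaction was −1.29 (SE 0.15, adjusted p = 1.19e-07). Per3, a period gene, was at −1.07 and Nr1d2, the REV-ERB beta gene, at −0.69. Dbp shares 21.3% of its exonic bases with Sphk2.

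The 10 most positive interactions under the rule for named genes were in Fos, Ccl7, Rgs1, Ccl2, Serpinb2, Cxcl2, Nptx1, Tnf, Plau and Spint1, and in all 10 both single treatments had lower means than DMSO. Fos (GeneID 14281, chromosome 12, 85520664 to 85524048 on the plus strand, GRCm39), an AP-1 subunit gene, had 14.5, 12.1, 12.6, 16.6 and 14.3 CPM in DSHNplusGW, 8.82, 10.4, 8.17, 11.4 and 9.27 in GW3965, 14.8, 14.2, 12.96, 14.6 and 15.1 in DSHN, and 58.9, 44.7, 46.1, 58.5 and 66.3 in DMSO libraries. The treated libraries were all far below the DMSO libraries, and the DSHNplusGW libraries overlapped with the DSHN ones and lay above every GW3965 library. Multiplied effects would have left 2.51 CPM, and the 14.0 ± 1.8 CPM measured was 5.58 times that (interaction 2.47, SE 0.15, adjusted p = 1.09e-11, and 2.34 with the correction). Of 27 tested immediate early genes, 20 were above the expected level and none below (18 and 0 in both fits), with a median of 0.52 in each fit. Dusp1, the phosphatase gene that turns off MAP kinases, was at 1.02, Zfp36, which encodes the mRNA-destabilising protein tristetraprolin, at 0.99, Klf2 at 0.98, Egr2 at 0.91 and Nr4a1 at 0.91.

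Chemokine ligand genes were above in 12 of 18 tested cases and below in none (9 and 0 in both fits), with a median of 0.69, and 0.53 with the correction. Ccl2, the monocyte chemoattractant gene, had 27.01, 21.4, 17.6, 39.7 and 27.6 CPM in DSHNplusGW, 11.7, 14.1, 10.97, 30.4 and 19.2 in GW3965, 32.9, 25.6, 21.5, 24.1 and 28.99 in DSHN, and 89.9, 42.6, 54.1, 93.9 and 118 in DMSO libraries. The 3 treated groups overlap and all lie below DMSO. The interaction was 2.18 (SE 0.36, adjusted p = 2e-05, and 1.89 with the correction). Ccl7, which attracts monocytes too, was at 2.31 (SE 0.48), the neutrophil attractant gene Cxcl2 at 2.10, Cxcl14 at 1.37 and Ccl9, at 992 ± 35 CPM in DSHNplusGW, at 0.68. Reads that match several such close paralogs could be split or left out by the counting. Of 21 tested inflammatory cytokine and enzyme genes, 10 were above and 2 below (9 and 1 in both fits), with a median of 0.38, and 0.36 with the correction.

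Tnf, the gene of tumour necrosis factor, had 6.42, 5.53, 4.83, 6.64 and 6.62 CPM in DSHNplusGW, 2.81, 3.51, 2.71, 5.77 and 4.88 in GW3965, 8.42, 6.37, 7.04, 8.12 and 8.93 in DSHN, and 18.8, 10.7, 12.5, 15.96 and 21.2 in DMSO libraries. The DSHNplusGW libraries overlapped with both single treatments, and the interaction was 1.61 (SE 0.26, adjusted p = 1.57e-05). Ptgs2, which encodes cyclooxygenase 2, was at 1.19 and Nfkbia, the NF-kB inhibitor gene, at 0.56, while Il1a was below by −1.01. Serpinb2 and Plau, an inhibitor of plasminogen activation and the activator urokinase, were both above, at 2.16 and 1.55, as were Rgs1, which curbs G protein signalling (2.26), the neuronal pentraxin gene Nptx1 (1.63) and Spint1, a protease inhibitor gene (1.51). Serpinb2 averaged 1.43 ± 0.448 CPM in DSHNplusGW, 1.502 ± 0.7003 in GW3965, 2.11 ± 0.4498 in DSHN and 10.2 ± 2.69 in DMSO, so its value rests on low counts in the treated groups.

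**Figure D3:**
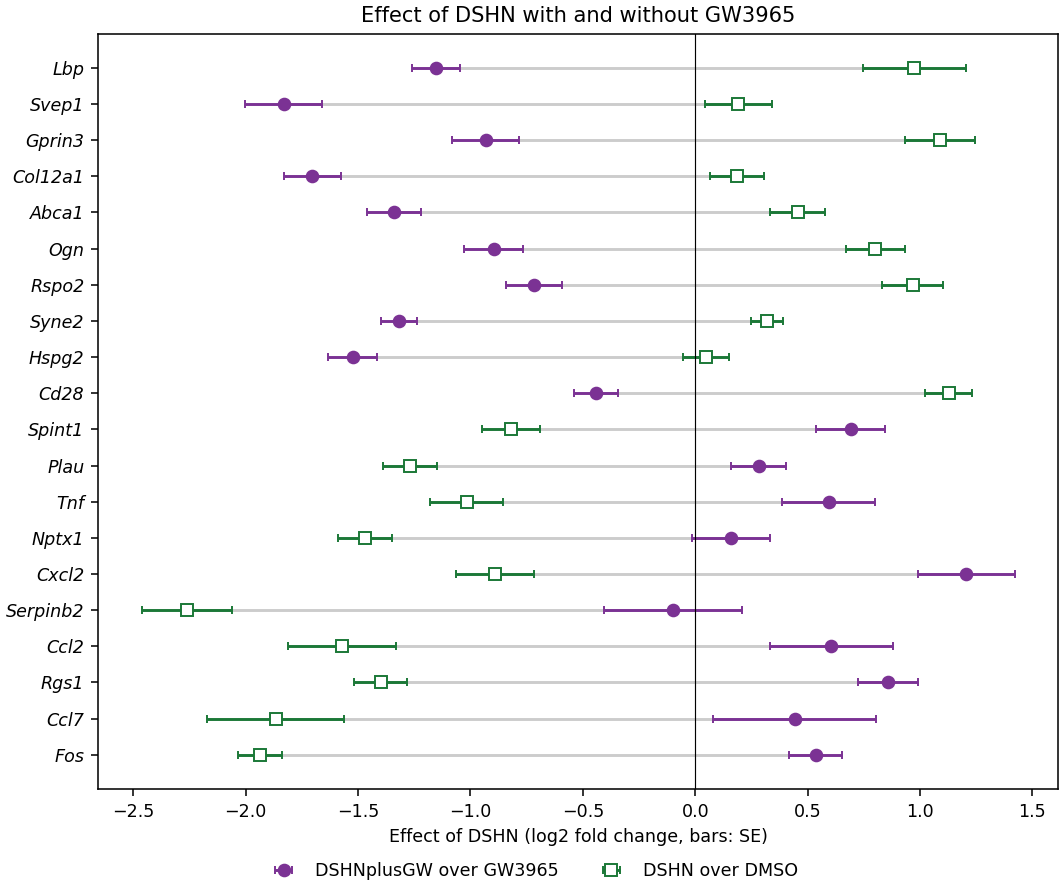
Log2 fold change of DSHNplusGW over GW3965 (filled circles) and of DSHN over DMSO (open squares), with SE bars, for the 10 genes with the most negative and the 10 with the most positive interaction under the rule for named genes. The first 10 genes have a positive DSHN over DMSO value and a negative DSHNplusGW over GW3965 value, and the last 10 a negative DSHN over DMSO value, with Serpinb2 the one of these whose DSHNplusGW over GW3965 value is not positive (−0.10).

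Of the macrophage identity list, Spp1, the osteopontin gene, had 774, 747, 750.1, 851 and 740.2 CPM in DSHNplusGW, 553, 552, 554, 568 and 556 in GW3965, 762, 709.7, 701, 672 and 685 in DSHN, and 1317, 1234, 1333, 1454 and 1533 in DMSO libraries. The DSHNplusGW libraries were above every GW3965 library and overlapped with DSHN. Its interaction was 1.43 (SE 0.07, adjusted p = 5.43e-14, and 1.25 with the correction). Cx3cr1, the fractalkine receptor gene, was at 1.18 and Cd14, a lipopolysaccharide coreceptor gene, at 0.80, and Cd14 had 147 ± 10.97 CPM in DSHNplusGW, 147 ± 4.28 in GW3965, 138 ± 4.24 in DSHN and 239 ± 18.3 in DMSO. Across all 32 tested macrophage identity genes 10 were above and 11 below (8 and 11 in both fits), with a median of −0.03, or −0.20 with the correction. The shares of all tested genes were 23.7% above and 26.5% below (16.2% and 19.2% in both fits).

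Mmp13 (GeneID 17386, chromosome 9, 7272514 to 7283333 on the plus strand, GRCm39), the collagenase 3 gene, had 50.3, 52.1, 48.9, 54.5 and 52.4 CPM in DSHNplusGW, 32.5, 33.99, 33.3, 31.5 and 34.5 in GW3965, 61.2, 54.4, 62.7, 60.95 and 56.3 in DSHN, and 88.1, 91.3, 88.5, 85.7 and 99.8 in DMSO libraries. Its DSHNplusGW libraries lay above every GW3965 library, overlapped with DSHN and lay below every DMSO library. The interaction was 1.25 (SE 0.07, adjusted p = 5.42e-13, and 1.18 with the correction), and Mmp12, the macrophage elastase gene, and Timp1, a metalloproteinase inhibitor gene, were at 1.06 and 1.07. The Mmp13 promoter is shown because AP-1 subunit genes such as Fos, Jun and Junb were above the expected level too. Whether AP-1 has a part in the Mmp13 result was not tested. Capitals mark TGAGTCA, the AP-1 site, on either strand in the RefSeq window chr9:7272264-7272563 (GRCm38.p6, plus strand).
Mmp13: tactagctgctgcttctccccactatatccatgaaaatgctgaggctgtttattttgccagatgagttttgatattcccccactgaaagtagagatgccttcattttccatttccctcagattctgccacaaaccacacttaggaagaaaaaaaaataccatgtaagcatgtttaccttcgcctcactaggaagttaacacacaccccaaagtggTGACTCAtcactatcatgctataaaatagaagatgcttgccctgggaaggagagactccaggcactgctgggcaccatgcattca
The match lies 35 bases before the start, in reverse complement, and 5.17% of the 27025 promoters in the table hold one. Among the 10332 tested genes with a window the share was 3.56%.

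DNA replication genes were above the expected level almost throughout. Of 36 tested, 33 were above and 2 below without the correction, and 32 and 0 in both fits, with a median of 0.56, and 0.48 with the correction. Above the expected level did not mean back at the DMSO level. Without the correction, the list medians were −0.30 for DSHN over DMSO and −0.60 for GW3965 over DMSO. They were 0.20 for DSHNplusGW over GW3965 and −0.14 for DSHNplusGW over DSHN. Pcna, the sliding clamp of DNA polymerases, had 309.6, 308, 291, 339.9 and 323 CPM in DSHNplusGW, 221, 225, 234, 283 and 264 in GW3965, 282, 249, 252, 239 and 247 in DSHN, and 323, 309.6, 327, 353 and 358 in DMSO libraries. Both single treatments were below DMSO in every library, and the DSHNplusGW libraries overlapped with DMSO in these uncorrected levels. DSHNplusGW over GW3965 was 0.36, and with the correction 0.10 (adjusted p = 0.125 by edgeR). DSHNplusGW over DSHN was 0.31, and with the correction 0.05 (adjusted p = 0.495 by edgeR). The interaction was 0.75 (SE 0.08, adjusted p = 7.28e-08, and 0.52 with the correction). Gmnn, the gene of the licensing inhibitor geminin, was at 0.95, the thymidine kinase gene Tk1 at 0.66, the cyclin E gene Ccne1 at 0.99 and Rrm2, a ribonucleotide reductase subunit gene, at 0.72. Pole and Pola1, which encode DNA polymerase subunits, were below (−0.34 and −0.19) and lost their calls with the correction, and Ccne2 did not pass (0.27, adjusted p = 0.12). Tk1 shares 20.7% of its exonic bases with Afmid.

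Of 40 tested mitosis genes, 13 were above and 14 below (10 and 5 in both fits), with a median of 0.02, and −0.01 with the correction. All tested genes had 23.7% above and 26.5% below (16.2% and 19.2% in both fits). Cdk1, the kinase gene that starts mitosis, was at 0.53 (0.59 with the correction) and the ubiquitin ligase gene Ube2c at 0.49 (0.22 with the correction). The centromere protein gene Cenpf was at −0.40 and, with the correction, at −0.14 (adjusted p = 0.0462). Of 24 tested p53 targets and cell death genes 14 were above and 6 below (11 and 5 in both fits), with the cell cycle inhibitor gene Cdkn1a at 0.43, Zmat3, an RNA-binding protein gene, at −0.60 and Trp53inp1 at −0.95.

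Lysosome genes were below the expected level in 27 of 37 tested cases and above in 3 (25 and 1 in both fits), with a median of −0.32, and −0.35 with the correction. Ctsd, the cathepsin D gene, averaged 8937 ± 650.3 CPM in DSHNplusGW, 10811 ± 834 in GW3965, 9249.7 ± 388 in DSHN and 7358 ± 159 in DMSO (interaction −0.60, SE 0.07, adjusted p = 8.78e-08). Scarb2, the receptor that carries glucocerebrosidase to lysosomes, was at −0.51, the glycogen-degrading Gaa at −0.75 and the membrane protein gene Lamp1 at −0.38. Ctsl, the cathepsin L gene, was the one member above in both fits. It had 1654, 1652, 1653, 1631 and 1551 CPM in DSHNplusGW, 1153, 1158, 1150.0, 1124 and 1105 in GW3965, 1703, 1627, 1751, 1641 and 1658 in DSHN, and 2039, 2016, 2046, 2148 and 2336 in DMSO libraries. Its DSHNplusGW libraries overlapped with DSHN and lay above GW3965 in every case, and the interaction was 0.85 (SE 0.05, adjusted p = 5.73e-12, and 0.86 with the correction).

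Nuclear receptor and cofactor genes were below in 24 of 32 tested cases and above in 3 (18 and 2 in both fits), with a median of −0.36, and −0.25 with the correction. Their median exon length was 6774 bases. Nr2c2, the TR4 orphan receptor gene, was at −1.27, Rora, a retinoid-related orphan receptor gene, at −0.98, the histone acetyltransferase gene Ep300 at −0.84, Ncor1, which encodes an LXR corepressor, at −0.67, the coactivator gene Ncoa3 at −0.56 and Rxra, the partner of LXR, at −0.37. Rxra averaged 129 ± 5.42 CPM in DSHNplusGW, 131 ± 5.93 in GW3965, 131 ± 3.83 in DSHN and 103 ± 3.49 in DMSO. Nr2c2 shares 48.6% of its exonic bases with other genes. Aryl hydrocarbon receptor and target genes were below in 5 of 7 tested cases and above in 1, in both fits alike, with the receptor gene Ahr at −0.84, the cytochrome gene Cyp1b1 at −0.49 and the feedback inhibitor gene Tiparp at −0.45.

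Matrix and collagen genes on the list were below in 15 of 24 tested cases and above in 3, in both fits alike, with a median of −0.39, and −0.32 with the correction. Outside that list, Col12a1, a fibril-associated collagen gene with 14138 exonic bases, had 107, 89.2, 78.3, 64.3 and 95.02 CPM in DSHNplusGW, 352, 296, 278, 231 and 262 in GW3965, 210.4, 236, 246, 336 and 308 in DSHN, and 268, 251, 223, 228 and 203 in DMSO libraries. The DSHNplusGW libraries alone were low, and the other 3 groups overlap. The interaction was −1.89 (SE 0.17, adjusted p = 5.6e-09, and −1.62 with the correction). Fn1, the fibronectin gene and the list member furthest below, averaged 566 ± 48.6 CPM in DSHNplusGW, 1462 ± 218 in GW3965, 1341 ± 219 in DSHN and 1446 ± 162 in DMSO (−1.26). Named by size, the basement membrane proteoglycan gene Hspg2 was at −1.57, the adhesion protein gene Svep1 at −2.02, the nuclear envelope gene Syne2 at −1.64, the proteoglycan gene Ogn at −1.70 and the WNT enhancer gene Rspo2 at −1.69.

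The fibroblast markers moved with these genes. All 5 of the 7 that were tested (Col1a1, Col1a2, Col3a1, Pdgfra and Pdgfrb) were below the expected level, Col1a1, Col1a2 and Col3a1 in both fits, and these 3 are on the matrix list too. Dcn and Lum had counts but did not pass the filter. The list summed to 1951 to 2331 CPM in DSHNplusGW, 2516 to 3167 in GW3965, 2461 to 3056 in DSHN and 2316 to 2904 in DMSO libraries. Endothelial markers summed to 59.8 to 67.9 CPM in DSHNplusGW, 78.2 to 92.4 in GW3965, 79.8 to 89.99 in DSHN and 85.6 to 97.4 in DMSO libraries. Their part in the matrix result was not tested.

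Genes of splicing regulation were above the expected level in 23 of 32 tested cases and below in 2 (22 and 1 in both fits), with a median of 0.48, and 0.55 with the correction. Srsf7, an SR splicing factor gene, had 70.8, 71.2, 69.9, 85.1 and 76.3 CPM in DSHNplusGW, 40.7, 44.5, 45.6, 61.7 and 55.5 in GW3965, 66.5, 58.2, 58.6, 54.7 and 57.9 in DSHN, and 73.6, 68.6, 72.1, 85.02 and 92.03 in DMSO libraries. The DSHNplusGW libraries were above every GW3965 and every DSHN library and overlapped with DMSO. Its interaction was 0.98 (SE 0.13, adjusted p = 6.53e-07), with Srsf2 at 0.78, Srsf5 at 0.73 and Srsf6 at 0.71, and with Srrm2, a long scaffold protein gene of 11992 exonic bases, at −0.73. With the correction Srsf7 was at 0.92, Srsf5 at 0.55 and Srrm2 at −0.46. These genes are known to yield many transcripts that keep an intron, and counts per gene do not separate those from spliced mRNA.

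Nuclear noncoding RNAs and snoRNA host genes were above in 16 of 23 tested cases and below in 1, and in 9 and 1 in both fits, with a median of 0.55, and 0.31 with the correction. Neat1, the long noncoding RNA that builds paraspeckles, had 121, 109, 133, 187 and 176 CPM in DSHNplusGW, 40.1, 62.6, 58.5, 103 and 82.8 in GW3965, 102, 82.6, 89.1, 66.3 and 67.5 in DSHN, and 105, 105, 106, 87.6 and 110.1 in DMSO libraries. The DSHNplusGW libraries lay above every GW3965 and DSHN library and overlapped with DMSO. The interaction was 1.39 (SE 0.24, adjusted p = 3.16e-05), and 1.64 with the correction, since Neat1 has 20773 exonic bases. Snhg5, a snoRNA host gene, was at 1.37, and Malat1, a nuclear speckle RNA, did not pass (0.48, adjusted p = 0.213). The share of mitochondrial rRNA and tRNA, given above, was highest in the same 5 libraries, and its relation to these RNAs was not tested.

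In lists of short genes the correction removed most calls. Cytosolic ribosomal protein genes were above in 68 of 81 tested cases and below in 2, and in both fits in 6 and 2. The corrected fit on its own called 6 above and 18 below, and the median was 0.22 without the correction and −0.05 with it. Nuclear-encoded respiratory chain genes were above in 52 of 78 and below in 1, and in both fits in 8 and 1. The corrected fit on its own called 9 above and 17 below, and the median was 0.25 without the correction and −0.03 with it. Proteasome genes were above in 32 of 38 and below in none, and in both fits in 8 and 0, with a median of 0.25, and 0.04 with the correction. Their median exon lengths were 860, 793.5 and 1356 bases. Of the members named by the rule, Rplp2, Atp5k, Atp5md and Psmb6 lost their calls with the correction, whereas Psma3, a proteasome core subunit gene with 3325 exonic bases, kept 0.35 of its 0.37 and Rps27l, a ribosomal protein paralog, 0.39 of its 0.45.

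Stress and metabolic lists were mixed. Heat shock genes were above in 12 of 21 tested cases and below in 1 (10 and 1 in both fits), with the cochaperone genes Dnaja1 at 0.46 and Hspe1 at 0.56, and Hspa4l at −0.45. With the correction Dnaja1 was at 0.46, Hspe1 at 0.27 and Hspa4l at −0.20. Integrated stress and unfolded protein response genes were above in 9 of 31 and below in 4 (4 and 4 in both fits). Over all tested genes 23.7% were above and 26.5% below (16.2% and 19.2% in both fits). Atf4, the transcription factor gene at the centre of that response, had 209.5, 211.6, 226.5, 239.6 and 231.2 CPM in DSHNplusGW and 128.8 to 158.6 CPM in the other 15 libraries, which overlap among themselves. Its interaction was 0.63 (SE 0.09, adjusted p = 1.26e-06, and 0.46 with the correction), beside 0.60 for Cebpb and −0.52 for the endoplasmic reticulum gene Herpud1. Hspe1 shares 12.5% of its exonic bases with Hspd1.

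Glycolysis and hypoxia genes were above in 14 of 29 and below in 7 (11 and 4 in both fits), with the pyruvate kinase gene Pkm at 0.34, the phosphoglycerate kinase gene Pgk1 at 0.34 and Tpi1 at 0.48. With the correction Pkm was at 0.55, Pgk1 at 0.18 and Tpi1 at 0.275. NRF2 targets were above in 7 of 28 and below in 8 (6 and 7), near the 23.7% and 26.5% of all tested genes. The thioredoxin gene Txn1 was at 0.47 (0.21 with the correction). G6pdx, which feeds the pentose phosphate pathway, was at −0.48 (−0.58 with the correction). PPAR and lipid oxidation targets were above in 6 of 26 and below in 10 (2 and 8), with the fatty acid binding protein gene Fabp4 at 0.62, and 0.34 with the correction. MHC class II and costimulation genes were above in 5 of 16 and below in 5, in both fits alike, with Lgals9 at −0.68 and Havcr2, a checkpoint receptor gene, at 0.36. Type I interferon genes were above in 3 of 27 and below in 2 (0 and 2), with the RNA sensor gene Ifih1 at −0.74, Stat2 at −0.41 and Ifitm3 at 0.55 before and 0.24 after the correction (adjusted p = 0.116). Zfp genes, mostly zinc finger transcription factors, were above in 27 of 314 and below in 92 (22 and 51), where all tested genes had 23.7% above and 26.5% below, and 16.2% and 19.2% in both fits. Their median was −0.11, and −0.03 with the correction. Zfp871 was at −0.65 and Zfp266 at −0.60, and with the correction at −0.39 and −0.44.

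**Figure D4:**
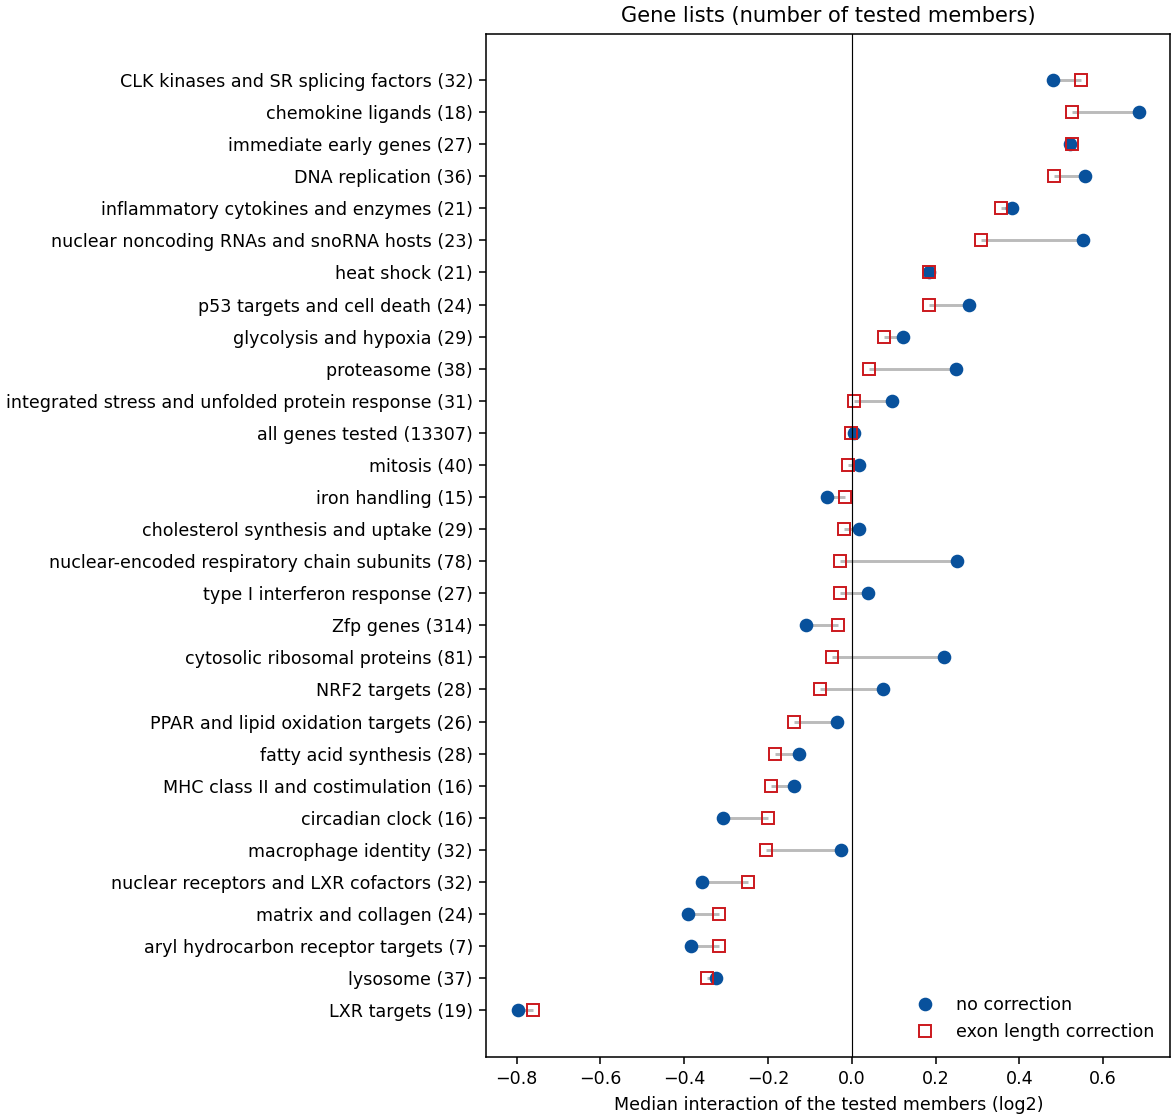
Median interaction (log2) of the tested members of 29 gene lists and of all tested genes, without correction (filled circles) and with the exon length correction (open squares), with the number of tested members in brackets. LXR targets lie lowest, at −0.80 and −0.76, while ribosomal, respiratory chain and proteasome genes move from 0.22 to 0.25 without the correction to between −0.05 and 0.04 with it.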

How the data were processed

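Libraries of 20 cultures were made with a stranded Kapa kit for mRNA, as the labels' protocols state. The values are the authors' deposited raw counts per gene, made with featureCounts 2.0.0, per the file headers, with STAR and GRCm39 named in the submitters' processing notes. No option for strand or multi-mapped reads stands in those commands. Of 46318 genes, 44749 were named from a RefSeq table; the 1569 others took 0.474% of the counts, and 19208 genes had no count. Counting error at 16855029 to 23796561 counts per library was smaller than the spread between replicates (chi-square per degree of freedom 2.47 to 13.3 over 40 pairs of replicates; biological coefficient of variation 0.0536).

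From these counts 13307 genes passed edgeR's filterByExpr and were scaled by TMM and fitted by quasi-likelihood (edgeR 4.0.16, R 4.3.3) with 1 mean per group over all 20 libraries, without a replicate block. For the exon length correction, each library got offsets fitted against log2 exon length from the files as a natural spline (5 degrees of freedom). The slopes on exon length used log2 CPM with a prior count of 2. The gene test was tested on simulated data. Alternatives were DESeq2 1.42.0 (test and size factors), limma 3.58.1 voom, total counts, other filters, a span correction, a replicate block and leaving out libraries.

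Lists (29 of pathways, 8 of markers; 787 of 790 entries matched) and members were chosen with earlier results of these data known. Named genes were the 10 most positive and 10 most negative interactions called in both fits with at least 5 CPM in a group, up to 3 members per list by adjusted p, and 10 genes of LXR biology. Other list members in the text were chosen after their values were seen. No set test or chance list was computed. A few list members are not reported here.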

Additional observations from a re-analysis of the deposited data

Results flagged for a closer look

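A library was marked where its CPM of a named gene, total counts, exon length slope or mitochondrial rRNA and tRNA share stood apart from the other 4 of its group by a gap that takes up more of the group's range than Dixon's test allows. This met 24 of 440 groups of values (5.45%), each of them a CPM of 1 of the 107 named genes, where chance flags about 1 in 20. DSHNplusGW replicate 1 stood apart in Nptx1 with 3.188 CPM (1.881 to 2.214 in the others). DSHNplusGW replicate 4 stood apart in Abca1 with 1131 CPM (1252 to 1295 in the others), Scd1 with 88.11 CPM (113.6 to 122.9 in the others) and Serpinb2 with 2.214 CPM (1.127 to 1.368 in the others). In DSHNplusGW replicate 5, these were Cenpf with 116 CPM (99.68 to 104.1 in the others) and Ctsl with 1551 CPM (1631 to 1654 in the others). GW3965 replicate 1 stood apart in Il18bp with 49.32 CPM (43.64 to 44.96 in the others), G6pdx with 432 CPM (394.8 to 402.6 in the others) and Atp5k with 42.63 CPM (46.59 to 47.9 in the others). GW3965 replicate 3 stood apart in Steap3 with 28.96 CPM (26.88 to 27.39 in the others). GW3965 replicate 4 stood apart in Spp1 with 568 CPM (551.7 to 556.4 in the others). In DSHN replicate 1, these were Scd1 with 11.2 CPM (13.37 to 14.1 in the others), Ahr with 9.252 CPM (12.16 to 12.97 in the others), Lpl with 2992 CPM (2631 to 2717 in the others) and Rgs1 with 39.91 CPM (29.72 to 31.93 in the others). DSHN replicate 3 stood apart in Ifitm3 with 372.7 CPM (279.3 to 297.4 in the others). In DSHN replicate 4, these were Gprin3 with 6.045 CPM (3.842 to 4.394 in the others), Herpud1 with 48.8 CPM (44.77 to 45.68 in the others) and Nfkbia with 57.81 CPM (64.39 to 66.31 in the others). DMSO replicate 1 stood apart in Srrm2 with 476.1 CPM (416.3 to 431.5 in the others) and Ube2c with 100.8 CPM (109.3 to 112.6 in the others). DMSO replicate 3 stood apart in Tiparp with 37.71 CPM (42.03 to 43.78 in the others). DMSO replicate 4 stood apart in Neat1 with 87.58 CPM (104.7 to 110.1 in the others). DMSO replicate 5 stood apart in Srsf5 with 149.9 CPM (127.9 to 128.6 in the others). None of the interactions of these genes lost its call without any 1 library.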

How the results depend on the processing

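Counts of called genes stayed within 1.5 times the main count in every alternative. Above and below the expected level, they were 3152 and 3525 with DESeq2 size factors, 3083 and 3481 by the DESeq2 test, 3132 and 3512 by limma voom, 2783 and 3449 with no filter and 3264 and 3412 with a stricter one. Total counts in place of TMM gave 4069 and 2853. Offsets on exon length and span gave 2867 and 3012. Without any 1 library the counts ran from 3013 to 3444 and from 3239 to 3562, with the length correction from 2623 to 2918 and from 2772 to 3132, and in both fits from 1990 to 2352 and from 2355 to 2614. Same-numbered libraries did not deviate together in every pair (18 of 30 pairs with a correlation over 0.1: all 15 among DSHNplusGW, GW3965 and DMSO, at 0.133 to 0.497, and 3 of the 15 with a DSHN library, at −0.488 to 0.259; 3 of 20 libraries closest to their own number in every group), so the numbers are not taken as pairs. Some DSHN libraries correlated with libraries of other numbers, such as DSHN replicate 4 with GW3965 replicate 1 (0.45) and DSHN replicate 1 with DSHNplusGW replicate 4 (0.445). A shared order under other numbers was not tested, and a block by number does not match it. With the replicate number as a block, 3196 and 3575 genes were called, 2888 and 3079 with the length correction and 2197 and 2624 in both fits. Of the 4712 genes called in both fits, 91.3 to 99.92% kept their call and sign under each alternative. The exon length correction is left out of this range, since its calls defined the set. All 107 named genes kept theirs except under length corrections: Psmb6, Rplp2, Atp5k, Atp5md and Ifitm3 lost the call with exon length, and Ndufb3 also with span, where Rplp2 was at −0.0042. The difference in exon length slope was −0.147 against GW3965 and DSHN and −0.158 against DMSO, and without any 1 library −0.1517 to −0.144, −0.1542 to −0.1399 and −0.1628 to −0.1536; over genes with at least 5 CPM it was −0.172, −0.1716 and −0.1851. Genes under about 5 CPM rest on few counts.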

Other observations

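Among surface genes of macrophages outside the rule for named genes, chosen after their values were seen, the endothelin receptor gene Ednrb averaged 50.9 ± 6.05 CPM in DSHNplusGW, 42.7 ± 8.29 in GW3965, 70.5 ± 8.31 in DSHN and 22.9 ± 3.94 in DMSO. Its interaction was −1.36 (SE 0.16, adjusted p = 2.32e-07 by edgeR). Cd38, an NAD-consuming ectoenzyme gene, was at −1.20, the mannose receptor gene Mrc1 at −0.92, the M-CSF receptor gene Csf1r at −0.66 and Adgre1, the F4/80 gene, at −0.53, each also called with the exon length correction. Csf1r averaged 1489 ± 111 CPM in DSHNplusGW, 2049 ± 216 in GW3965, 2095 ± 174 in DSHN and 1826 ± 94.3 in DMSO, so that its DSHNplusGW mean was the lowest of the 4. Itgax, the CD11c gene, was above the expected level by 0.61.

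Arg1, the arginase 1 gene, had an interaction of 3.86 (SE 0.55, adjusted p = 2.27e-06 by edgeR), at 0.582 ± 0.165 CPM in DSHNplusGW, 0.1199 ± 0.0974 in GW3965, 0.332 ± 0.172 in DSHN and 1.06 ± 0.1903 in DMSO. These levels are too low for its fitted fold to be read as a size. The uracil glycosylase gene Ung, with 8.64 ± 1.19 CPM in DSHNplusGW, 5.66 ± 1.41 in GW3965, 7.25 ± 1.31 in DSHN and 12.03 ± 2.13 in DMSO, had the most positive interaction of the DNA replication list (1.31, SE 0.20).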
